A study of Danio rerio with 20 samples.

Results

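Cytosolic ribosomal protein genes of zebrafish (Danio rerio) skin were taken as all genes whose symbol, ignoring case, begins with rpl or rps and a digit or with rplp and 0, 1 or 2, or is rpsa, leaving out the rps6k kinases. The rule found 84 of the 32105 genes counted, of which 26269 had a symbol. The large subunit had 47 of them and the small subunit 36. The last, rps19bp1, meets the rule by its symbol only, since it encodes a nucleolar protein that binds RPS19 and is not counted among the ribosomal proteins. The name table prints many zebrafish genes in capitals, and symbols are given here as it has them. The ribosomal proteins RPSA and RPL27A were not analysed here.

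RNA was sequenced from skin in 20 libraries, 1 per sample, from male fish of the strain AB JxTu. The 4 groups of 5 were 3-year fish exercised in a swim tunnel, in which fish swim against a current, unexercised 3-year fish, exercised 1-year fish and unexercised 1-year fish. The labels give no other treatment, no duration of swimming and no batch. No sample of one group is tied to a sample of another, so p-values measure only the spread between samples.

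The cytosolic ribosome translates all mRNAs made in the nucleus. Its small subunit decodes the mRNA and its large subunit joins the amino acids. The mRNAs of vertebrate ribosomal proteins start with a pyrimidine tract, the TOP motif, by which the growth kinase mTOR controls their translation. Their mRNAs are among the most abundant of most tissues, and several ribosomal proteins are also known for roles outside the ribosome, such as binding of the p53 regulator Mdm2 by RPL5 and RPL11.

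Total counts per library ranged from 29280697 to 52437698, and 20788 genes passed a filter on low counts, all 84 members among them. Levels are given in CPM, the count scaled to a common library total by the TMM method. Summed marker levels are the exception and use plain library totals, without the TMM factor. The mean factor was 0.886 in exercised and 1.03 in unexercised 1-year fish, and 1.03 in exercised and 1.06 in unexercised 3-year fish. The sums of exercised 1-year fish are therefore lower against the other groups than they would be with TMM scaling. Each fold change is on the log2 scale, beside its standard error (SE), and each adjusted p was taken from the quasi-likelihood F-test of edgeR after Benjamini-Hochberg correction for all genes tested. Summed markers of superficial keratinocytes reached 33208 to 49015 CPM and those of basal keratinocytes 41868 to 74888 CPM. Markers of fast muscle (4028 to 24756 CPM) and hepatocytes (2764 to 9090 CPM) were also present in every library. In these bulk samples, fewer cells of a type and less RNA per cell cannot be told apart. For unexercised 1-year replicate 1 the column header reads muscle but the label skin, and its summed muscle markers (10282 CPM) lay within the range of its group (5298 to 12640 CPM). There were 6 libraries that stood apart in the pattern of the members, described below: replicates 1 and 5 of the exercised 3-year fish, 2 and 5 of the unexercised 3-year fish, and 1 and 4 of the unexercised 1-year fish.

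Ribosomal protein genes took between 7.17% and 10.1% of all counts in every library. Exercised 3-year fish had shares of 8.65%, 7.46%, 8.43%, 8.08% and 7.72% in replicates 1 to 5, against 9.25%, 9.06%, 9.25%, 9.12% and 10.1% in unexercised 3-year fish. Exercised 1-year fish had 7.46%, 7.68%, 8.13%, 7.17% and 7.87%, against 8.87%, 8.44%, 8.58%, 8.48% and 8.07% in unexercised 1-year fish. At 3 years every exercised library lay below every unexercised one, and at 1 year the groups overlapped by 1 library each. Large subunit genes took 4.71 ± 0.332% of counts in exercised and 5.50 ± 0.312% in unexercised 3-year fish, and small subunit genes 3.36 ± 0.227% and 3.84 ± 0.142% (SD, n = 5 each). In 1-year fish the large subunit share was 4.43 ± 0.194% with exercise and 5.00 ± 0.228% without, and the small subunit share 3.23 ± 0.178% and 3.49 ± 0.0961%.

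A share of counts also moves with every other abundant transcript. TMM scaling adjusts for this on the assumption that most genes do not change, which was not tested. The mean log2 CPM of the 79 members with at least 100 CPM on average was 9.77 ± 0.105 in exercised and 9.95 ± 0.0665 in unexercised 3-year fish, and 9.93 ± 0.0784 in exercised and 9.86 ± 0.0159 in unexercised 1-year fish (SD, n = 5 each). On this scale 4 of 5 exercised 3-year libraries (9.68 to 9.77) lay below all unexercised 3-year libraries (9.87 to 10.04), while replicate 1 (9.95) lay among them. Exercised 1-year libraries ran from 9.82 to 10.02 and enclosed the narrow range of unexercised 1-year libraries (9.84 to 9.88).

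**Figure D1:**
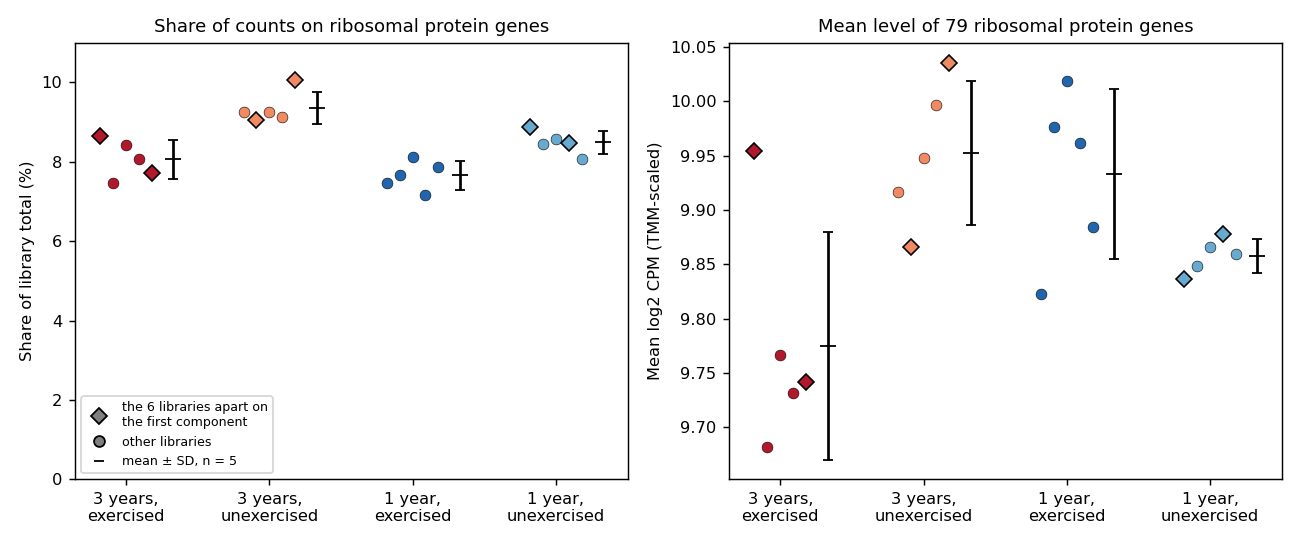
Share of each library total on the 84 ribosomal protein genes (left, percent) and mean log2 CPM of the 79 members with at least 100 CPM (right, axis not from 0) in each library of the 4 groups. Bars are mean ± SD of 5 libraries and diamonds the 6 libraries that stand apart. At 3 years the share is 7.46% to 8.65% with and 9.06% to 10.1% without exercise.

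Levels compared between genes need the gene's length, so levels here are RPKM, calculated from the counts and own library totals and given as mean ± SD over the 20 libraries. The highest were rps20 (2763 ± 371 RPKM) and RPS7 (2263 ± 214 RPKM) of the small subunit, rpl32 (2412 ± 187 RPKM) of the large subunit, and RPS2 (2316 ± 371 RPKM), a small subunit protein near the mRNA entry channel. These 4 do not differ from their neighbours in this order beyond their SD. The median over large subunit genes was 840 RPKM and over small subunit genes 960.2 RPKM. RPL38 (299 ± 36.5 RPKM) was among the lowest of the canonical genes. The lengths come from the gene models behind the deposited RPKM, which are as long as 3569 bases for RPS24, so an overlong model lowers the value.

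The low end held copies and relatives. RPL22L1, the paralogue of RPL22, had 275 ± 64.2 RPKM, and rps11l, described below, 19.2 ± 24.8 RPKM. The p53-inducible RPS27 paralogue of mammals, rps27l, had 53.3 ± 16.2 RPKM and RPL7L1, a relative of RPL7 that acts in ribosome assembly in mammals, 18.01 ± 3.46 RPKM. Below them was rps19bp1 (10.03 ± 1.49 RPKM). Over all 20 libraries RPL18, RPL28 and RPS6 had the lowest coefficients of variation of CPM, 6.51%, 7.38% and 7.52%. That of RPL21 was 27.9%, among the highest.

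The first component of variation among the members did not follow the groups, since it split 3 of the 4. In a principal component analysis of the 79 members 46.7% of the variance fell on the first component and 32.2% on the second. The 6 libraries named above lay at 1.38 to 1.79 on the first component and the other 14 between -1.43 and -0.24. The ratio of large to small subunit counts was 1.49 to 1.52 in the 6 and 1.32 to 1.403 in the other 14, with no value in between. All 5 exercised 1-year libraries belonged to the 14.

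Single members set the 6 libraries apart. RPL21 had 771 to 942 CPM in them and 405 to 640 CPM in the other 14, and RPL13, a large subunit protein, 1144 to 1475 CPM against 724 to 1075 CPM. RPL26, which lies near the exit of the peptide tunnel, had 1031 to 1311 CPM against 651 to 997 CPM. In the opposite direction rps20 had 1094 to 1307 CPM in the 6 and 1368 to 1840 CPM in the 14. Of 79 members 5 lay wholly above the other 14 libraries, RPL21, RPL13, RPL26 and RPS29 among them, and 5 wholly below, rps20, RPS23 and RPL29 among them. That is 12.7% of the 79, against 0.0786% of 1273 other genes with at least 100 CPM. The 6 libraries were found from these same values, so the counts are a description and no test was made.

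**Figure D2:**
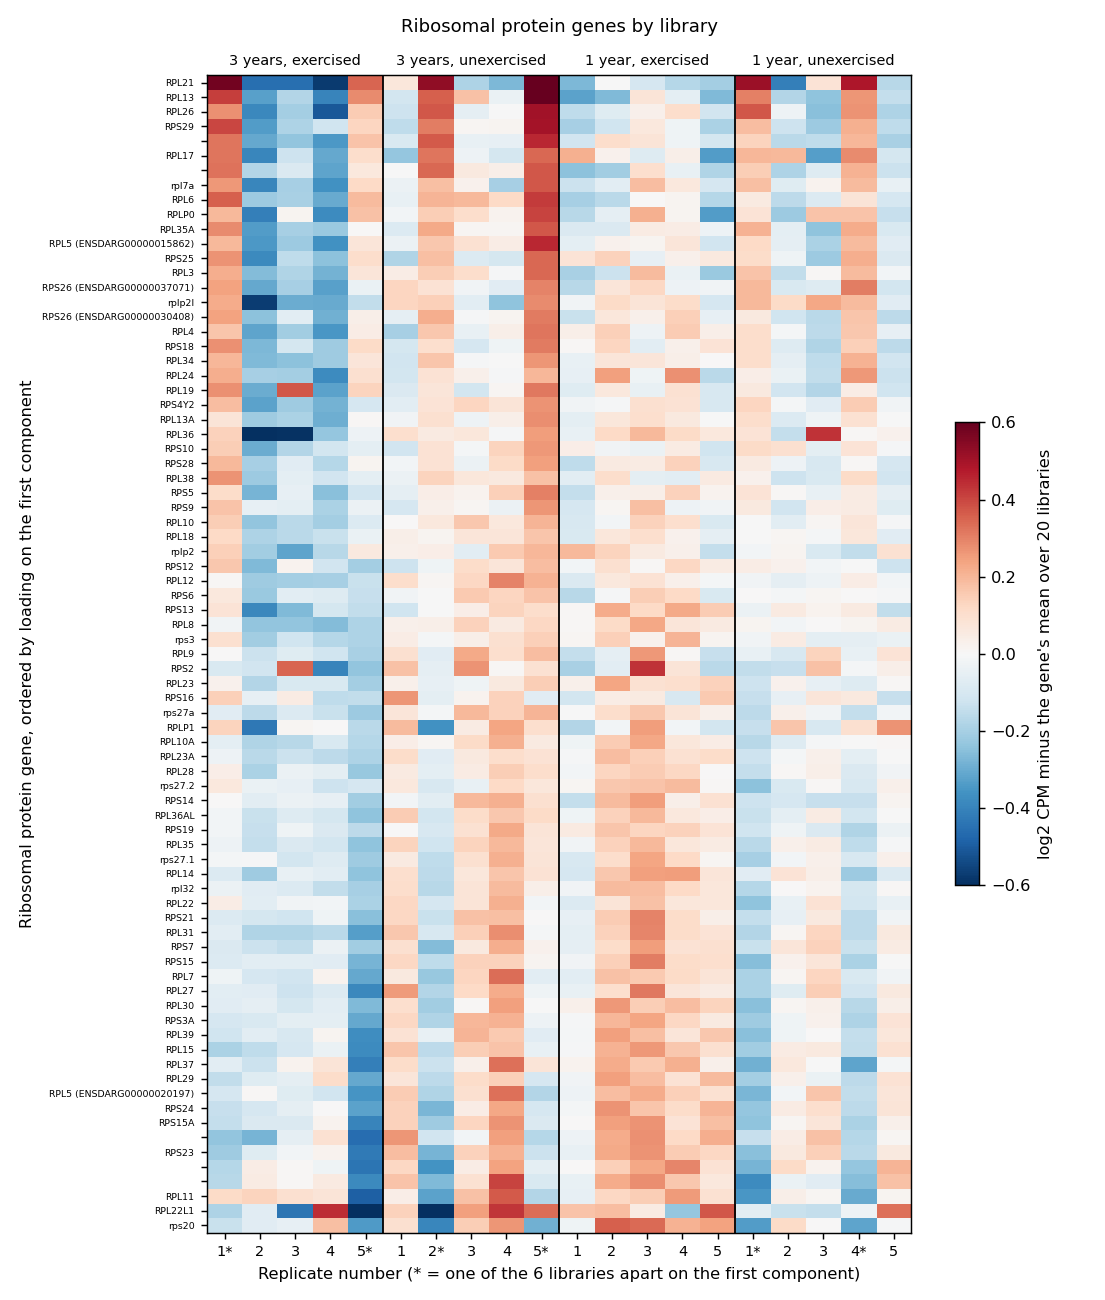
log2 CPM of each of 79 ribosomal protein genes in each of 20 libraries, minus the gene's mean over the 20 (colour, from -0.6 in blue to 0.6 in red), genes ordered by their loading on the first component (some rows carry no name). Asterisks mark the 6 libraries apart, in which RPL21 and its neighbours at the top are high and rps20 and its neighbours at the bottom low.

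The 2 copies of RPL5 took different shares in these libraries. Of the summed CPM of both RPL5 genes, ENSDARG00000020197 took 43.8% to 49.5% in the 6 libraries and 54.7% to 60.7% in the 14. The pairs RPS26 (57.1% to 63.0% over all 20 libraries for ENSDARG00000030408), rplp2l and rplp2 (49.3% to 61.9% for rplp2l), and rps27.1 and rps27.2 (61.3% to 65.4% for rps27.1) showed overlapping shares. How the authors' counting assigned reads shared by such copies is not given in the sources used here, so the split within a pair is uncertain. The relation of this pattern to sample handling, library preparation or the parents of the fish was not tested.

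The first comparison was exercise at 3 years, where the share of counts separated the groups. Most ribosomal protein genes had a lower fitted level with exercise, and 1 of them, RPL12, passed the test. The median log2 fold change was -0.18 over the 84 members (-0.19 in the large and -0.16 in the small subunit), against 0.01 over all 20788 genes tested. Of the members 81 had a negative sign, 45 of 47 in the large and 35 of 36 in the small subunit, while 48.7% of all genes did. The members moved together between libraries, so sign counts here and below are not counts of separate observations. Of 79 members 47, 4, 10, 13 and 23 lay above their own mean over all libraries in exercised 3-year replicates 1 to 5. In unexercised 3-year replicates 1 to 5 the counts were 50, 36, 60, 64 and 60.

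RPL12 is a large subunit protein at the base of the stalk that recruits translation factors. It had 1196, 1028, 1036, 1038 and 1085 CPM in exercised 3-year fish, against 1283, 1200, 1298, 1463 and 1377 CPM in unexercised 3-year fish. The groups did not overlap, though the highest exercised and the lowest unexercised library differed by little. It fell by 0.30 (SE 0.07, adjusted p = 0.0499). This was 1 member of 84, against 0.520% of all genes called lower, and 0 members were called higher, against 0.803%. Left out 1 at a time, the call stayed only without replicate 4 of the exercised 1-year fish and replicate 1 of the exercised 3-year fish, and the adjusted p reached 0.0997 without replicate 5 of the unexercised 3-year fish. Without any 1 of the other 18 libraries, of either age, it was over the threshold. The log2 fold change ranged from -0.35 to -0.26 over the 20 fits.

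At an unadjusted p under 0.05, 23 members were lower and 1 higher, against 8.90% and 10.5% of all genes. DESeq2 called 7 members lower and limma voom 0, against 6.78% and 0.188% of all genes called in either direction. Shares for DESeq2 are of the genes to which it gave an adjusted p. The groups did not overlap for 4 members that were lower (RPL12, RPL8, RPL10A and rps27a) and 1 that was higher (RPL7L1), against 2.49% of all genes lower and 1.83% higher. rps27a was named after its values were seen. RPL8, a protein of the large subunit near the peptidyl transferase centre, had 1236, 1064, 1062, 1047 and 1100 CPM in exercised 3-year fish and 1280, 1282, 1380, 1300 and 1366 CPM in unexercised 3-year fish (log2 fold change -0.26, SE 0.07, adjusted p = 0.0673). For rps27a, which encodes ubiquitin fused to a small subunit protein, exercised 3-year fish had 1292, 1215, 1278, 1236 and 1164 CPM and unexercised 3-year fish 1425, 1342, 1553, 1489 and 1560 CPM (-0.25, SE 0.07, adjusted p = 0.0763). Every exercised library was below every unexercised one for both genes, but neither passed the test.

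The extremes at 3 years were genes with a wide spread. The lowest value was that of rps11l (-3.16, SE 1.29, adjusted p = 0.189), described below. RPL36, a large subunit protein, had 623, 372, 376, 482 and 554 CPM in exercised and 608, 588, 593, 564 and 674 CPM in unexercised 3-year fish (-0.33, SE 0.13, adjusted p = 0.185). Replicates 2 and 3 were lowest and replicate 1 lay among the unexercised libraries. RPL7L1 went the other way, with 29.7, 37.1, 31.1, 48.0 and 29.7 CPM in exercised and 24.9, 27.0, 28.3, 27.9 and 26.3 CPM in unexercised 3-year fish (0.39, SE 0.15, adjusted p = 0.175). RPL19 also had a positive sign (0.01, SE 0.13), within its error.

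Other transcripts moved beside the members at 3 years. Of 12 basal keratinocyte genes 3 were called higher with exercise and 0 lower (median 0.71), with a summed level of 41868 to 65458 CPM in exercised and 45791 to 56749 CPM in unexercised 3-year fish. Of 17 superficial keratinocyte genes 1 was called higher (median 0.07). None of 10 dermal fibroblast genes was called by edgeR, with 7 higher at an unadjusted p under 0.05 (median 0.54). Of 20 fast muscle genes 1 was called higher (median 1.21), and their summed level was 4028 to 24756 CPM in exercised and 4070 to 9652 CPM in unexercised 3-year fish. With the muscle score as a covariate the members' median was -0.19 and 0 were called, and with a hepatocyte score -0.16 and 0. Of all genes 0.192% were called with the muscle and 0.216% with the hepatocyte score, against 1.32% without a covariate. The part of the keratinocyte and fibroblast transcripts was not tested. Without the 6 libraries apart, which leaves 3 libraries per 3-year group, the median was -0.23, 81 signs were negative and 0 members were called, while 1 of all genes was called.

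**Figure D3:**
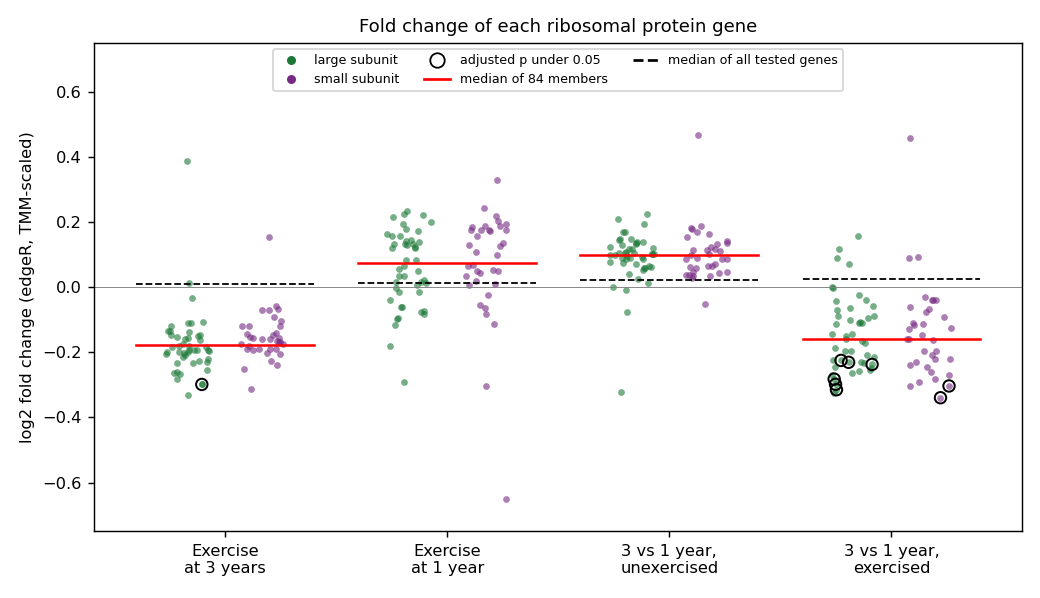
Log2 fold change (edgeR, TMM-scaled) of the large and small subunit genes in the 4 comparisons, with the median of 84 members (red line) and of all tested genes (dashed). Circles mark adjusted p under 0.05. rps19bp1 is not drawn, nor is rps11l where it lies below the axis (-3.16, -1.63 and -4.14). Members lie mostly below 0 for exercise at 3 years and for age among exercised fish, where plain library totals turn their median to 0.07.

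For exercise at 1 year 0 members passed the test and the fitted changes were small, mostly positive with TMM scaling and mostly negative with plain library totals (median -0.15). The median was 0.08 over the members (0.06 large, 0.10 small), against 0.01 over all genes, with 62 of 84 signs positive, against 51.2% of all genes. At an unadjusted p under 0.05, 9 members were higher and 0 lower, against 14.5% and 15.3% of all genes. DESeq2 called 4 members higher and limma voom 1, against 20.1% and 19.8% of all genes called in either direction. By edgeR 7.37% of all genes were called higher and 8.15% lower. The groups did not overlap for 2 members, RPS19 and RPL23, both higher, against 5.79% of all genes higher and 7.04% lower.

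RPS19, the protein first found mutated in Diamond-Blackfan anaemia, had the lowest p of the members and was named after its values were seen. It had 956, 1036, 1009, 1013 and 974 CPM in exercised 1-year fish, against 849, 906, 869, 813 and 901 CPM in unexercised 1-year fish (0.20, SE 0.07, adjusted p = 0.0668). The gap between the lowest exercised and the highest unexercised library was smaller than the range within either group. RPL23 had 773, 891, 806, 813 and 832 CPM with exercise and 695, 772, 731, 717 and 760 CPM without (0.16, SE 0.07, adjusted p = 0.133). The highest fold change was that of rps20, with 1407, 1840, 1813, 1656 and 1695 CPM in exercised and 1136, 1554, 1434, 1150 and 1426 CPM in unexercised 1-year fish (0.33, SE 0.14, adjusted p = 0.108). The unexercised libraries at 1136 and 1150 CPM are both among the 6 that stand apart, and without the 6 its log2 fold change was 0.19 (SE 0.11).

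On the negative side at 1 year were rps11l (-0.65, SE 1.14, adjusted p = 0.747), described below, rps27l (-0.30, SE 0.16, adjusted p = 0.219) and RPL21 (-0.29, SE 0.24, adjusted p = 0.442). RPL21 had 502 to 604 CPM with exercise and 455 to 862 CPM without, and without the 6 libraries its log2 fold change was 0.0030. Hepatocyte markers moved beside the members at this age: 23 of 29 were called higher (median 3.09), and their summed level was 3645 to 9090 CPM in exercised and 3044 to 4186 CPM in unexercised 1-year fish. A summed level is weighted to the most abundant genes of its list. Of 12 basal keratinocyte genes 7 were called higher. Of 17 superficial keratinocyte genes 3 and of 10 dermal fibroblast genes 2 were also called higher. With the hepatocyte score as a covariate the members' median was 0.05, but this score itself differed with exercise, so their parts cannot be told apart. The part of the keratinocyte and fibroblast transcripts in the members' values was not tested.

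Age without exercise gave small positive changes, and 0 members passed the test. The median was 0.10 (0.10 large, 0.09 small), against 0.02 over all genes, with 78 of 84 signs positive, against 52.4% of all genes. At an unadjusted p under 0.05, 5 members were higher and 1 lower, against 8.81% and 8.38% of all genes. DESeq2 and limma voom called 0 members, against 4.06% and 4.49% of all genes in either direction. edgeR called 0.495% of all genes higher and 0.471% lower. RPL10A, a large subunit protein of the stalk where deacylated tRNA leaves the ribosome, was the 1 member without overlap, at 1431, 1404, 1508, 1613 and 1441 CPM in unexercised 3-year and 1239, 1319, 1385, 1387 and 1399 CPM in unexercised 1-year fish (0.14, SE 0.07, adjusted p = 0.34). Of all genes 2.58% were likewise higher without overlap, and 2.51% lower.

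The largest positive change with age among unexercised fish was that of rps27l, at 42.7, 27.4, 45.6, 47.9 and 35.8 CPM in 3-year and 30.5, 23.3, 30.6, 33.7 and 26.2 CPM in 1-year fish (0.47, SE 0.16, adjusted p = 0.156). In 4 of 5 libraries of 3 years it was above every library of 1 year. RPL7L1 was lower, at 24.9 to 28.3 CPM in 3-year and 24.6 to 39.7 CPM in 1-year fish (-0.32, SE 0.15, adjusted p = 0.284), with the lowest library in the 1-year group. RPL6 (0.22, SE 0.12) and RPL13 (0.21, SE 0.18) had the next highest values.

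Age among exercised fish gave the most calls, among the members as over all genes. A larger share of all genes (17.2%) was called than of the members. The median was -0.16 over the members and in each subunit alone, against 0.02 over all genes. Of the 84 members 76 had a negative sign, against 47.9% of all genes and 72.1% of 1273 other genes with at least 100 CPM. With plain library totals the members' median was 0.07 and 26 signs were negative. By edgeR 9 members fell and 0 rose, which is 9 of 84 against 7.43% of all genes called lower and 9.73% called higher. Among them were RPL8, RPL23A, RPL15, RPL31, RPL10A and RPL23 of the large subunit, and RPS13 and rps11l of the small subunit. At an unadjusted p under 0.05, 33 members were lower and 1 higher, against 14.9% and 17.7% of all genes. DESeq2 called 26 lower and 1 higher, and limma voom 5 lower, against 22.5% and 12.3% of all genes called in either direction. The groups did not overlap for 14 members, all lower, against 4.55% of all genes lower and 4.57% higher.

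RPL8 had 1236, 1064, 1062, 1047 and 1100 CPM in exercised 3-year fish, against 1258, 1357, 1469, 1319 and 1298 CPM in exercised 1-year fish. Replicate 1 of the 3-year fish lay just below the lowest 1-year library and the other 4 well below it. RPL8 fell by 0.28 (SE 0.07, adjusted p = 0.0123) and passed the test with any 1 library left out (highest adjusted p 0.0318). Over all 34 alternative settings it lost the call in 5, plain library totals among them. Its log2 fold change nearest 0 was -0.059. RPL23A, at the tunnel exit, had 1186, 1082, 1108, 1085 and 1063 CPM in exercised 3-year fish and 1205, 1375, 1336, 1291 and 1305 CPM in exercised 1-year fish. It fell by 0.24 (SE 0.07, adjusted p = 0.0237), and without replicate 2 of the exercised 1-year fish its adjusted p was 0.0653.

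Among the small subunit genes RPS13 had 829.1, 599, 652, 729 and 706 CPM in exercised 3-year and 786, 914, 850, 917 and 870 CPM in exercised 1-year fish. The groups overlapped, since replicate 1 of the 3-year fish exceeded the lowest 1-year library. RPS13 fell by 0.30 (SE 0.09, adjusted p = 0.026). Of the other large subunit genes RPL15 fell by 0.32 (SE 0.09), RPL31 by 0.30 (SE 0.09), RPL10A by 0.23 (SE 0.07) and RPL23 by 0.23 (SE 0.07), with adjusted p-values of 0.0279, 0.0346, 0.0354 and 0.0378. RPL10A, with 1229 to 1333 CPM in exercised 3-year and 1365 to 1633 CPM in exercised 1-year fish, showed no overlap, as did RPL15, RPL31 and RPL23. With plain library totals neither RPS13 nor any of the large subunit genes was called. Over the alternative settings the log2 fold changes nearest 0 were -0.0047 for RPL10A, -0.0015 for RPL23 and -0.013 for RPL23A.

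The number of calls with age among exercised fish hung on single libraries. It was 2 without replicate 2, 3 without replicate 3 and 4 without replicate 4 of the exercised 1-year fish. It was 3 without replicate 2, 3 without replicate 3 and 4 without replicate 5 of the exercised 3-year fish, and 11 without their replicate 1. The share of all genes called also moved, from 10.4% to 19.8% over the fits without 1 library. Without the 6 libraries apart, 7 members were called lower (RPL8, RPL36, RPL4, RPS13, rplp2l, RPS25 and RPL5 ENSDARG00000015862) and rps27l higher (0.57, SE 0.11, adjusted p = 0.0071), with a median of -0.20. Of the 9 calls over all libraries only RPL8 and RPS13 stayed called without the 6. In that fit 12.1% of all genes were called, 64.3% of these higher.

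Transcripts of other cells differed with age among exercised fish as well. Of 29 hepatocyte genes 21 were called lower in 3-year fish (median -2.32), with a summed level of 2764 to 3404 CPM, against 3645 to 9090 CPM in exercised 1-year fish. Of 12 basal keratinocyte genes 8 were called lower and 1 higher, of 10 dermal fibroblast genes 2 lower and 2 higher, and of 18 leukocyte genes 7 were called higher. With the hepatocyte score as a covariate the members' median was -0.14 and 0 were called, and with the muscle score 10 were called. The hepatocyte genes themselves differed between these groups, so the fit with their score cannot tell their part from that of age. Of all genes 7.74% were called with the hepatocyte and 18.5% with the muscle score, against 17.2% without a covariate.

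**Figure D4:**
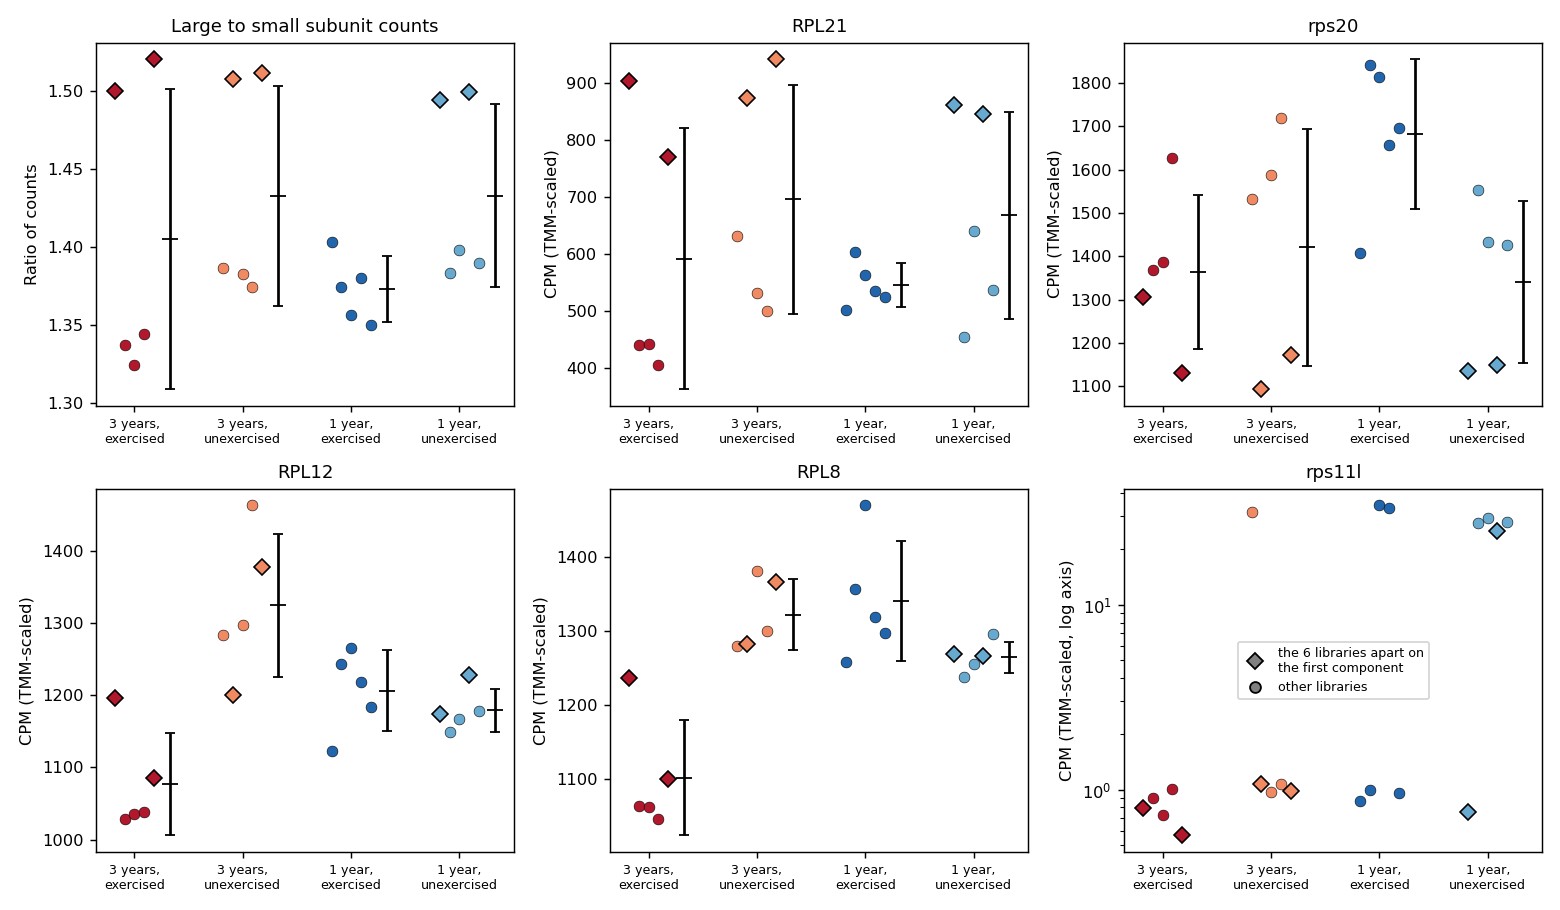
Ratio of large to small subunit counts, and CPM of RPL21, rps20, RPL12, RPL8 and rps11l, in each library of the 4 groups (axes not from 0, log axis for rps11l). Bars are mean ± SD of 5 libraries, not drawn for rps11l, and diamonds the 6 libraries apart. RPL8 lies at 1047 to 1236 CPM in exercised 3-year fish and at 1258 to 1469 CPM in exercised 1-year fish, while rps11l falls into 2 levels that cross the groups.

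The change with exercise was compared between ages by the difference of its log2 fold changes, 3 years minus 1 year. The median over members was -0.25 (-0.25 large, -0.26 small), against 0.02 over all genes. Of 84 signs 80 were negative, against 47.8% of all genes and 64.2% of 1273 other genes with at least 100 CPM. With plain library totals the members' median was -0.07 with 54 signs negative, against 0.20 over all genes. With limma-trend on log2(RPKM + 0.5) it was -0.06 with 55 signs negative. No member passed edgeR's test: 0 were called. Of the members 32 were lower at an unadjusted p under 0.05 (6.58% of all genes) and 0 higher (6.81%). DESeq2 called 10 lower and limma voom 0, against 2.3999% and 0.00962% of all genes called in either direction. Of all genes edgeR called 0.00481%, which is 1 gene. The lowest p was that of rps27a (-0.39, SE 0.10, adjusted p = 0.115), whose exercise changes were -0.25 at 3 years and 0.13 at 1 year. The lowest values apart from rps11l were those of RPL31 (-0.42, SE 0.13, adjusted p = 0.173) and RPL22L1 (-0.42, SE 0.29, adjusted p = 0.559). Hepatocyte genes also differed here: 28 of 29 had a negative and 1 a positive sign (median -3.80), with 0 called. At an unadjusted p under 0.05, 25 of them were lower and 0 higher. With their score as a covariate the members' median was -0.21, but the score itself differed, so their parts cannot be told apart. The 4 comparisons above share groups with each other in pairs, so their signs are not independent.

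The sign of 2 of these medians depended on the scaling of the libraries. With plain library totals in place of TMM the median of all genes moved to -0.21 for exercise at 1 year and to 0.25 for age among exercised fish. The members' medians moved with them, to -0.15 with 6 members called lower, and to 0.07 with 1 called higher and 1 lower. Of all genes 21.5% were called with plain totals for exercise at 1 year, 17.9% of these higher. For age among exercised fish 24.9% were called, 85.3% of these higher. Relative to all genes the members' median was 0.06 for exercise at 1 year under both scalings, and -0.18 under both for age among exercised fish. For exercise at 3 years it was -0.19 under both scalings, and for the difference between ages -0.27. Other factors move every gene of a library nearly alike, so this relative median could hardly change between these scalings. With limma-trend on log2(RPKM + 0.5) and log2(RPKM + 0.1) it was -0.0084 and 0.037 for exercise at 1 year. For age among exercised fish it was then -0.095 and -0.14, and for exercise at 3 years -0.19 and -0.18. The difference between ages gave -0.20 and -0.24.

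**Figure D5:**
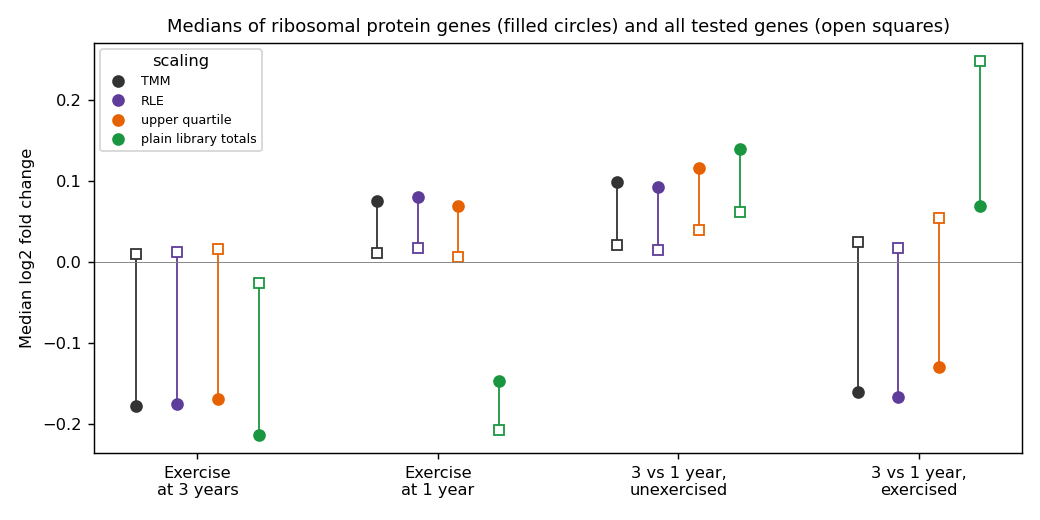
Median log2 fold change of the 84 ribosomal protein genes (filled circles) and of all tested genes (open squares) in the 4 comparisons under 4 ways of scaling the libraries. With plain totals both medians shift together, and the members' median changes sign for exercise at 1 year (-0.15) and for age among exercised fish (0.07).

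Other abundant genes gave a different picture from all genes. Over 1273 other genes with at least 100 CPM the median log2 fold change was 0.05 for exercise at 3 years, 0.17 for exercise at 1 year, -0.09 for age without exercise and -0.21 for age among exercised fish. The members' medians of -0.18 and 0.10 for exercise at 3 years and age without exercise had the opposite sign to those of the abundant genes. For exercise at 1 year and age among exercised fish, the members' medians (0.08 and -0.16) had the same sign and were smaller in size. Members with gene models of at most 1 kb and longer ones had medians of -0.16 (33 genes) and -0.18 (51 genes) for exercise at 3 years, and of -0.17 and -0.15 for age among exercised fish. Over 82 other genes with at least 100 CPM and models of at most 1 kb the medians were 0.01 and -0.23 in these comparisons.

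The levels of rps11l fell into 2 levels that crossed the groups. This gene had 24.9 to 34.4 CPM in 7 libraries and 0.566 to 1.08 CPM in the other 13. The high libraries were replicate 1 of the unexercised 3-year fish, replicates 3 and 4 of the exercised 1-year fish and replicates 2 to 5 of the unexercised 1-year fish. All 5 exercised 3-year libraries were at the low level. Its call among exercised fish (-4.14, SE 1.33, adjusted p = 0.0397) set 5 low libraries against 2 high and 3 low ones, and was lost without any 1 of the exercised 3-year libraries or of those 2 high libraries.

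The other paralogues, rps27l, RPL22L1 and RPL7L1, missed the threshold over all libraries in each comparison. For rps27l with age among exercised fish the levels were 36.4, 33.9, 35.1, 35.2 and 20.0 CPM in 3-year and 25.3, 20.9, 24.4, 23.3 and 23.0 CPM in 1-year fish (0.46, SE 0.16, adjusted p = 0.058). In 4 of 5 exercised 3-year libraries it was above every exercised 1-year library, opposite in sign to 76 of the members. RPL22 took between 67.4% and 81.3% of the summed CPM of RPL22 and RPL22L1, and the groups of RPL22L1 overlapped in every comparison. rps19bp1, with 9.36 to 14.5 CPM over all 20 libraries, had log2 fold changes between -0.08 and 0.05 in the 4 comparisons.

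Some ribosomal proteins have symbols that the rule leaves out. FAU, a small subunit protein with a ubiquitin-like leader, had log2 fold changes of -0.17 for exercise at 3 years, 0.10 for exercise at 1 year, 0.06 for age without exercise and -0.21 for age among exercised fish. Its copy faub had -0.13, -0.09, 0.21 and 0.17 in the same order. RACK1, a scaffold on the small subunit, had -0.21, 0.10, 0.07 and -0.24. None of these 3 genes passed the test in any comparison. RACK1 had the lowest p of the 3 for exercise at 3 years, at 1623 ± 114 CPM with and 1877 ± 187 CPM without exercise (SD, n = 5 each, -0.21, SE 0.09, adjusted p = 0.193).

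Translation elongation factors and other TOP mRNAs had medians of -0.15, 0.06, 0.08 and -0.12 in the same order of comparisons over 20 genes. With age among exercised fish, where 7.43% of all genes were called lower, 3 of them fell, eef1a1l1 by 0.33 (SE 0.07, adjusted p = 0.00644), eef1da by 0.38 (SE 0.09, adjusted p = 0.0107) and EEF1G by 0.30 (SE 0.08, adjusted p = 0.0217). These encode subunits of the factor that brings aminoacyl-tRNA to the ribosome. VIM (ENSDARG00000010008), a gene of the intermediate filament vimentin, rose with age in exercised (0.84, SE 0.24, adjusted p = 0.0217) and unexercised fish (1.17, SE 0.24, adjusted p = 0.0283). For exercise at 3 years 0 passed edgeR's test, with 1 higher and 4 lower at an unadjusted p under 0.05, and the lowest p was that of eef1a1l1 (-0.28, adjusted p = 0.0508).

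Genes for making ribosomes had medians opposite in sign to the members' in all 4 comparisons with TMM scaling. Of 97 ribosome biogenesis genes 9 fell and 1 rose with exercise at 1 year (median -0.18), where 8.15% of all genes were called lower and 7.37% higher. The count called lower was near the share over all genes, while counts at an unadjusted p, given below, were not. Those called lower included the GTPase-like assembly factor tsr1 (-0.71, SE 0.16, adjusted p = 0.0078) and the helicase ddx10 (-0.36, SE 0.09, adjusted p = 0.0129). The kinase RIOK1 rose (0.81, SE 0.19, adjusted p = 0.00842). At 3 years 1 rose with exercise, against 0.803% of all genes, RRS1 (0.96, SE 0.21, adjusted p = 0.0326), with a median of 0.08. With age 1 fell among unexercised fish, the nucleolar methyltransferase FBL (-0.72, SE 0.17, adjusted p = 0.0448), with a median of -0.24. Among exercised fish 2 fell with age, RIOK1 (-0.70, SE 0.19) and SBDS (-0.49, SE 0.15), with a median of 0.02, close to the 0.02 over all genes. Of all genes 0.471% were called lower with age among unexercised and 7.43% among exercised fish. At an unadjusted p under 0.05, 27 of the 97 were lower and 2 higher with exercise at 1 year, against 15.3% and 14.5% of all genes. At 3 years 4 were lower and 16 higher, against 8.90% and 10.5%. With age 37 were lower and 6 higher among unexercised fish, against 8.38% and 8.81%. Among exercised fish 4 were lower and 5 higher with age, against 14.9% and 17.7%. Of 13 genes of RNA polymerase I and its factors, which transcribe ribosomal RNA, 4 fell with exercise at 1 year, ubtfl, TAF1B, TAF1A and ubtf, by 0.45 to 0.78. The medians of the 13 were -0.21 for exercise at 1 year and 0.05 at 3 years. For age they were -0.19 without and 0.16 with exercise. POLR1F rose with exercise at 3 years (0.76, SE 0.17, adjusted p = 0.0394) and TAF1A with age among exercised fish (0.54, SE 0.14, adjusted p = 0.0136).

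Among initiation factors and regulators, the shares called at 1 year were near the 7.37% higher and 8.15% lower over all genes. Of 32 initiation factors 3 rose and 4 fell with exercise at 1 year, led by the cap-binding EIF4E2 (-1.33, SE 0.20, adjusted p = 0.000784), and eif4e1c rose with exercise at 3 years (1.28, SE 0.25, adjusted p = 0.0237). With age 2 fell among unexercised fish (0.471% lower over all genes), and 2 rose and 4 fell among exercised fish (9.73% higher and 7.43% lower over all genes), where the helicase eif4a1b had the lowest p (-0.54, SE 0.09, adjusted p = 0.00174). Of 32 regulators of TOP mRNAs and ribosome transcription 3 rose and 3 fell with exercise at 1 year. The ribosomal S6 kinase rps6kb1a rose with exercise at 3 years (1.31, SE 0.28, adjusted p = 0.0326) and at 1 year (1.47, SE 0.28, adjusted p = 0.00257). DEPTOR, an inhibitor of mTOR, rose with exercise at 1 year (1.64, SE 0.28, adjusted p = 0.00141) and fell with age among exercised fish (-1.91, SE 0.28, adjusted p = 0.000817), where MTOR also fell (-0.31, SE 0.11, adjusted p = 0.0488). MYCN, a transcription factor of ribosome genes, rose with exercise at 3 years (1.13, SE 0.24, adjusted p = 0.0322). Of the 32 regulators 2 rose and 0 fell with exercise at 3 years, against 0.803% and 0.520% of all genes. With age among exercised fish 1 rose and 3 fell (median -0.015), against 9.73% and 7.43% of all genes. In that comparison 15 of the regulators had a positive and 17 a negative sign.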

How the data were processed

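Skin RNA from 20 male zebrafish samples was sequenced from TruSeq v2 libraries, according to the protocol per the labels; this kit leaves strand unmarked. Tools listed in the submitters' processing notes were STAR 2.4.1d, featureCounts 1.4.6-p4 and bcl2fastq 1.8.4, with the build GRCz10; annotation and counting settings were not given in the sources used. The authors deposited whole-number counts per gene, which were used as deposited, and RPKM values. The authors' RPKM held library totals taken in turn down the gene list (implied gene length varied by 22.0% with own totals and by 0.00385% with totals in turn, over 11623 genes) and was 0.558 to 1.79 times the value with own totals, so it served only to recover gene lengths. RPKM was recomputed from these. Symbols came from a separate name table, and 0 count columns were left unmapped.

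All 20 libraries entered 1 fit of 4 group means in edgeR 4.0.16 (R 4.3.3; TMM, filterByExpr, robust quasi-likelihood, 16 residual degrees of freedom, biological coefficient of variation 34.7%), and genes with an adjusted p under 0.05 were called. Libraries within groups differed by more than sampling noise (lowest chi-square per degree of freedom 47.8). DESeq2 1.42.0, limma 3.58.1 (voom and trend), other scalings, filters, covariates and left-out libraries were alternatives, and the scripts were tested on simulated data. Genes were named by a rule: members called or with the 3 highest or lowest fold changes per comparison, the extremes of level and variation, copies, and called members of the related lists. Some members the rule names are not reported here. Members and lists were chosen with earlier results of these data known.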

Additional observations from a re-analysis of the deposited data

Results flagged for a closer look

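In groups of 5 libraries, 6 of 152 groups of values held a library whose gap to the nearest other was large for the range of its group, by a criterion that chance meets in about 1 of 20 groups. RPL8 had 1236 CPM in replicate 1 of the exercised 3-year fish, against 1047 to 1100 CPM in the other 4. That library also stood apart in the pattern of the members. The p53-inducible paralogue rps27l had 20.0 CPM in replicate 5 of the exercised 3-year fish, against 33.9 to 36.4 CPM in the others. The share of counts on ribosomal protein genes was 10.1% in replicate 5 of the unexercised 3-year fish, against 9.06% to 9.25% in the others. RPL22L1 had 264.9 CPM in replicate 5 of the unexercised 1-year fish, against 191 to 206 CPM in the others. The gene rps11l had 31.6 CPM in replicate 1 of the unexercised 3-year fish, against 0.965 to 1.08 CPM in the others, and 0.758 CPM in replicate 1 of the unexercised 1-year fish, against 24.9 to 29.3 CPM in the others.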

How the results depend on the processing

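The 20 fits that each left out 1 library called 0 to 0 members for exercise at 1 year, 0 to 2 for exercise at 3 years, 0 to 0 for age without exercise, 2 to 11 for age among exercised fish and 0 to 0 for the difference between ages. The medians in these fits were 0.061 to 0.095, -0.22 to -0.15, 0.078 to 0.11, -0.22 to -0.14 and -0.29 to -0.23 in the same order. Plain library totals, and leaving out the 6 libraries apart, were added after the data were seen. For exercise at 3 years 0 members were called under RLE and upper-quartile scaling, no filter, limma voom, the compared groups alone, the muscle and the hepatocyte covariate and without the 6 libraries, 7 with DESeq2, and 2 with plain totals and with limma-trend on log2(RPKM + 0.5). For exercise at 1 year the count was 4 with DESeq2, 1 with limma voom and with the stricter filter, 3 with limma-trend at either pseudocount (0.5 or 0.1) and 6 with plain totals, all lower under limma-trend and plain totals. For age among exercised fish it was 5 without a filter and with limma voom, 27 with DESeq2, 2 with plain totals and 0 with the hepatocyte covariate. It was 1 with limma-trend at either pseudocount, where the called member was higher, and 1 in the compared groups alone, where it was lower. Under limma-trend at either pseudocount 56 members had a positive and 28 a negative sign for this comparison. DESeq2 called 10 for the difference between ages, where it called 2.3999% of all genes. The share of all genes called moved with the setting as well. It ran from 2.13% to 21.5% for exercise at 1 year and from 0.00475% to 6.78% at 3 years. For age among exercised fish it ran from 7.74% to 24.9%. Medians that moved by over the replicate SD of 0.0738 did so under settings without scaling factors: -0.14 (both pseudocounts) and -0.15 (plain totals) for exercise at 1 year, 0.065 and 0.069 for age among exercised fish, and -0.064 and -0.068 for the difference between ages. The compared groups alone gave no value for that difference, which needs all 4 groups. No paired analysis was possible because the labels number no replicates, so a number here only names a sample.

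Over the named genes 30 of 1184 values had the opposite sign, none of them a change called over all libraries, 115 lost and 16 gained the call, and the cause was not tested. For RPL19 with exercise at 3 years the opposite values were -0.045 with limma-trend at either pseudocount, -0.17 with the muscle covariate, -0.028 with plain totals, and the fits without 1 library ranged from -0.077 to 0.094. For RPL21 the difference between ages was -0.0090 with limma voom, -0.11 and -0.16 with the muscle and hepatocyte covariates, -0.37 without the 6 libraries, and -0.15 to 0.19 over the fits without 1 library. RPL21 also turned with age among exercised fish (-0.043 with the hepatocyte covariate, -0.35 without the 6 libraries and -0.097 to 0.23 over the fits without 1 library) and with exercise at 1 year (0.0030 without the 6 libraries). RPL13 turned with age among exercised fish without the 6 libraries (-0.14). The difference for rps11l was 1.02 with limma voom, 0.59 and 0.58 with limma-trend at 0.5 and 0.1, 0.32 with the muscle covariate and -2.81 to 0.30 over the fits without 1 library, where that for rps19bp1 ranged from -0.0013 to 0.15.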
